A study of Mus musculus with 10 samples.

Results

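The troponin and tropomyosin genes Tnnt1, Tnnt2, Tnni1, Tnni2, Tnni3, Tnnc1, Tpm1, Tpm2, Tpm3 and Tpm4 were followed in mouse hearts with and without Lmna. They were taken by name from the per-library expression table, and all 10 were found among its 14626 genes. Lmna encodes lamins A and C of the nuclear lamina. Total RNA from 14-day-old hearts was sequenced in 5 wild-type (WT) and 5 Lmna knockout (Lmna -/-, KO) libraries, all from C57BL/6 mice. Every library carries an animal number of its own in the labels, which name no Cre, transgene or drug, and describe neither the design of the Lmna allele nor the part of the heart taken. Each value is a signal, a library-scaled read count (CPM of the effective library size) as the authors deposited it, and libraries are named by genotype and label number.

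Troponin is a complex of 3 subunits that sits with tropomyosin on the actin thin filament. Troponin C binds calcium, troponin I holds the filament switched off at low calcium, and troponin T ties the complex to tropomyosin, a coiled coil that covers or frees the myosin-binding sites. Each subunit has several muscle forms from separate genes. The fetal heart expresses Tnni1, the slow skeletal troponin I, together with Tnni3, the cardiac troponin I, and Tnni3 replaces Tnni1 after birth. Tnnt2 is the cardiac troponin T and Tnnt1 the slow skeletal form. Tnni2 is the fast skeletal troponin I, and Tnnc1 is the troponin C of heart and slow muscle. Tpm1 is the main tropomyosin of the heart. Tpm2 is the beta form of striated and smooth muscle, Tpm3 serves slow muscle and the cytoskeleton, and Tpm4 is mainly cytoskeletal.

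The genes Tnni1, Tnni3, Tnnt1 and Tnnt2 lie in 2 linked pairs. Tnni1 (chromosome 1, 135799421 to 135810989) and Tnnt2 (chromosome 1, 135836334 to 135852268) are 25344 bases apart, and Tnnt1 (chromosome 7, 4504570 to 4515975) and Tnni3 (chromosome 7, 4518308 to 4522443) are 2332 bases apart, in the deposited mm10 positions. Their promoters are shown because the ratios compare a gene of one pair with a gene of the other. Each window, from RefSeq on GRCm38.p6, runs from 250 bases before to 50 bases after the annotated start site and is written 5′ to 3′ along the gene. Capitals mark matches on either strand to the M-CAT motif (CATTCC), the E-box (CANNTG), the GATA motif (GATAA) or the TATA box (TATAAA).
Tnni1 promoter, chr1:135799171-135799470, plus strand: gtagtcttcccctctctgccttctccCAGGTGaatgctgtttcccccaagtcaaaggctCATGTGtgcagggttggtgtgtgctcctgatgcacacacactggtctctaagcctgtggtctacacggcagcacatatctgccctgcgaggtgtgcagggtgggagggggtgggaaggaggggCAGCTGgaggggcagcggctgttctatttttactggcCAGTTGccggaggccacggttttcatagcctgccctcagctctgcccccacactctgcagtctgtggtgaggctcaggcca
Tnni3 promoter, chr7:4522479-4522778, minus strand: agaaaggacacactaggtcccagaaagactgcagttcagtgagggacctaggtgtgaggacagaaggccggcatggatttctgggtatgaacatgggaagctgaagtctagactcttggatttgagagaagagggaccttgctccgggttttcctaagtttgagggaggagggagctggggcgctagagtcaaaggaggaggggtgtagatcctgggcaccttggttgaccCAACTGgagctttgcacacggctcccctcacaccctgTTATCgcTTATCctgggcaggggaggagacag
Tnnt2 promoter, chr1:135836084-135836383, plus strand: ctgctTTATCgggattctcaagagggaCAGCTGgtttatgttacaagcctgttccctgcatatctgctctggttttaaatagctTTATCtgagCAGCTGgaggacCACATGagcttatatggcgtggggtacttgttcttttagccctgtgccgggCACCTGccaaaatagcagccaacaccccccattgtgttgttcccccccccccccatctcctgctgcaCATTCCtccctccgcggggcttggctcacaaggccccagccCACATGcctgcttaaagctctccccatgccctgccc
Tnnt1 promoter, chr7:4515926-4516225, minus strand: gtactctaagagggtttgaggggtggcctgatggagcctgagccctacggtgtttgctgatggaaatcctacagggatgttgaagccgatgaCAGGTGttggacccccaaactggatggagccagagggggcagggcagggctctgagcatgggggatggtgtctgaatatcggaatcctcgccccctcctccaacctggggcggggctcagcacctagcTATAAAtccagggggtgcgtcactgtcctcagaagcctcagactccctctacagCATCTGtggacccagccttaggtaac
The Tnni1 window held 4 E-boxes and no match to the other 3 motifs in capitals. The Tnni3 window held 1 E-box and 2 GATA matches, both after the start site. The Tnnt2 window held 5 E-boxes, 2 GATA matches and 1 M-CAT match at position -27 from the start site, and the Tnnt1 window held 2 E-boxes and a TATA box at position -30. Matches of different motifs did not overlap in these windows. Among 32851 RefSeq promoters of the same length, 72.3% held an E-box, 25.4% a GATA match, 14.7% an M-CAT match and 13.6% a TATA box. The CArG box and the MEF2 box, held by 1.63% and 3.19% of promoters, had no match in the windows of the 9 genes that matched the RefSeq table. Tnnt2, Tnni1 and Tpm3 each have a further window in that table that is not shown.

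The libraries held 15259545 to 22146030 reads. Lmna signal was 102.3 to 110.1 in the WT libraries and 22.1 to 48.9 in the knockout libraries, a log2 difference of -1.69 (standard error, SE, 0.17, limma adjusted p = 0.00461). KO libraries 2 and 5 stood apart. The summed signal of 10 cardiomyocyte markers was 153990 to 172000 in WT, 91944 in KO library 2, 80823 in KO library 5 and 130610 to 152540 in the other 3 knockout libraries. Ttn and Myh6 made up most of each sum. In KO library 2 all markers but Pln lay below the WT range, and Pln (9248) was above its WT maximum of 7851. In KO library 5 all markers but Pln and Ldb3 lay below the WT range. There Pln was within it and Ldb3 (1117) was above its WT maximum of 863. Values without KO library 2, KO library 5 or both are given where they move a result.

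None of the 10 genes passed an adjusted p of 0.05 in the comparison of all 10 libraries (limma), and 1 of 10 had an unadjusted p under 0.05. Among all 12855 genes tested these shares were 0.202% and 20.8%. The gene at the unadjusted threshold was Tnni1. It was also the only one of the 10 called without KO library 5, where 4.98% of all genes were called, and without KO libraries 2 and 5, where 10.7% were. On reads recovered from the signals, edgeR's quasi-likelihood test called 0 of the 10, against 0.156% of all genes. DESeq2 called 1 of the 10, against 6.15%, and limma with library weights called 1 of the 10, against 17.7%. Of the 10, 1 had in the authors' deposited table a false discovery rate (FDR) under 0.05, against 5.52% of its 14646 rows. That gene was Tnni1 in each. A count of 1 is the smallest above 0, so these counts do not separate the group from the background.

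The signals of the WT and knockout libraries did not overlap for 2 of the 10 genes, Tnni1 and Tnni3, against 10.3% of all genes tested. The log2 difference, knockout minus WT on the log2(signal + 0.5) scale, was negative for 8 of the 10 genes and positive for Tnni1 and Tpm3, but the sign of Tnnt1, Tnnt2, Tnni2, Tpm1 and Tpm2 turned positive when signals were scaled to cardiomyocyte markers, a scaling chosen after seeing the data that moves the median of all genes from -0.01 to 0.40. The median log2 difference over the 10 genes was -0.41, against -0.01 for all genes. It was -0.33 without KO library 5, -0.18 without KO library 2 and -0.10 without both.

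**Figure D1:**
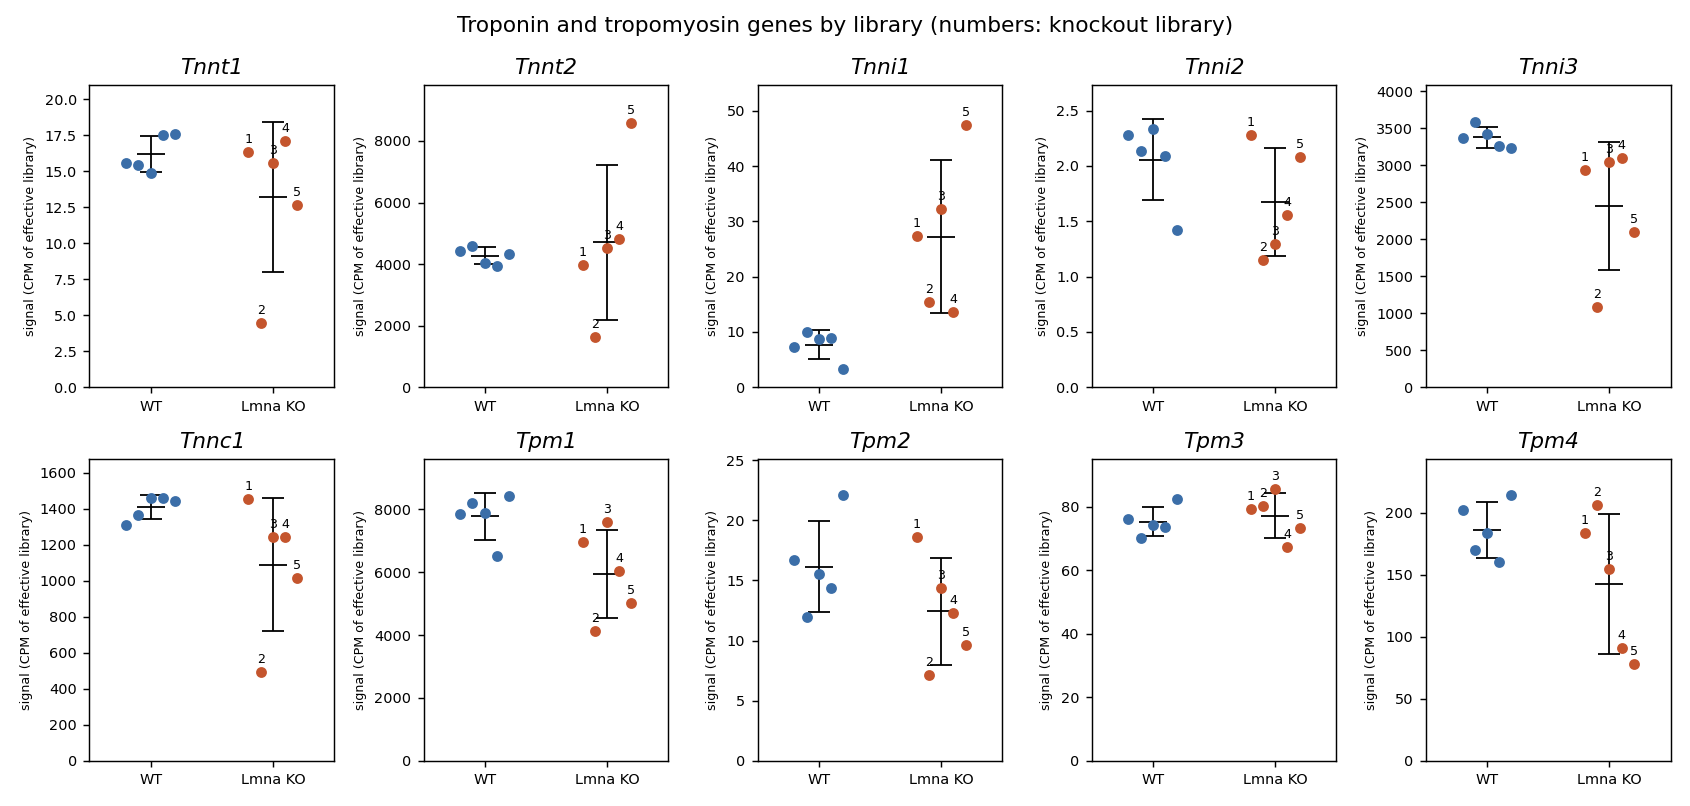
Signal of each troponin and tropomyosin gene (y axis from 0, CPM of the effective library size) in the 5 WT and 5 Lmna knockout libraries. Points are libraries, the long mark is the group mean and the error bar 1 SD; numbers name the knockout library, and each panel has its own scale. The groups separate for Tnni1, with 13.6 as the lowest knockout value and 10.03 as the highest WT value, and for Tnni3, with 3103 as the highest knockout value and 3239 as the lowest WT value.

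Tnni1, the troponin I of the fetal heart and of slow skeletal muscle, was higher in every knockout library than in every WT library. Its signal in WT libraries 1 to 5 was 7.32, 10.03, 8.75, 8.97 and 3.29. In KO libraries 1 to 5 it was 27.3, 15.3, 32.3, 13.6 and 47.5. KO library 5 was the highest, KO libraries 2 and 4 came closest to the WT range, and WT library 5 was the lowest. The means were 7.67 ± 2.63 in WT and 27.2 ± 13.8 in the knockout (SD, n = 5 each), a ratio of 3.54. The log2 difference was 1.70 (SE 0.36, limma adjusted p = 0.0747), which did not pass the threshold. Without KO library 5 the knockout mean was 22.1 ± 9.10 (SD, n = 4), and Tnni1 rose by 1.46 (SE 0.32, limma adjusted p = 0.0300). Without KO libraries 2 and 5 the log2 difference was 1.60 (limma adjusted p = 0.0157). Leaving out any single library other than KO library 5 gave 1.44 to 1.90, and none of these passed (limma adjusted p = 0.0619 to 0.214). The 1.44 was without WT library 5.

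The call on Tnni1 in the full set of libraries depended on the test. Its adjusted p was 0.0636 with edgeR's quasi-likelihood test (log2 difference 1.83), 0.000134 with DESeq2 (1.84) and 0.00215 with library weights in limma (1.73). In the authors' deposited table its log2 ratio was 1.82 with an FDR of 1.69e-05. Tnni1 was counted from 60 to 935 reads per library.

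Tnni3, the cardiac troponin I of the adult heart, lay below the WT range in all 5 knockout libraries, by little in 3 of them. Its signal was 3363, 3590, 3429, 3261 and 3239 in WT libraries 1 to 5. In KO libraries 1 to 5 it was 2941, 1080, 3043, 3103 and 2094. KO libraries 2 and 5 were far below the others. The means were 3376 ± 142 and 2452 ± 869 (SD, n = 5 each), and the log2 difference of -0.56 (SE 0.27) did not pass the test (limma adjusted p = 0.251). It was -0.29 without KO library 2. Without KO libraries 2 and 5 it was -0.16 (SE 0.06, limma adjusted p = 0.128). Fewer cardiomyocytes and less RNA per cardiomyocyte cannot be told apart in these bulk samples.

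Tnni2, the fast skeletal troponin I (chromosome 7, 142442468 to 142444405), was near the lowest level that entered the test. Its signal was 2.28, 2.14, 2.34, 2.09 and 1.42 in WT libraries 1 to 5 and 2.28, 1.15, 1.30, 1.55 and 2.08 in KO libraries 1 to 5, from 20 to 51 reads. The groups overlapped, with a log2 difference of -0.25 (SE 0.18, limma adjusted p = 0.437) and of -0.16 without KO library 2.

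The ratio of Tnni1 to Tnni3, which within a library does not depend on how that library was scaled, rose in the knockout hearts. Per 1000 units of Tnni3 signal, WT libraries 1 to 5 had 2.18, 2.79, 2.55, 2.75 and 1.02 units of Tnni1 signal. KO libraries 1 to 5 had 9.27, 14.2, 10.6, 4.38 and 22.7. KO library 4 was closest to WT and KO library 5 farthest from it, and the groups did not overlap. The mean ratios were 2.26 ± 0.736 and 12.2 ± 6.82 per 1000 (SD, n = 5 each), 5.41 times as high in the knockout. The mean log2 ratio differed by 2.33 in a two-sided exact permutation test, with p = 0.00794, the smallest that 5 against 5 values allow, and p = 0.0159 adjusted over the 2 ratios. With medians in place of means it differed by 2.06 and did not pass (exact permutation, adjusted p = 0.0952). Before adjustment that p was the smallest that medians of 5 against 5 values allow. Adjusted beside the Tnnt1 to Tnnt2 ratio (exact permutation by medians, adjusted p = 0.381) it could not have passed, so the medians test decides nothing here. The mean difference was 2.06 without KO library 5 (exact permutation, adjusted p = 0.0159). Without KO libraries 2 and 5 the difference was 1.83 (exact permutation, adjusted p = 0.0357). Both genes moved the ratio in KO libraries 2 and 5, since Tnni3 was low there, whereas in KO libraries 1, 3 and 4 Tnni3 was 2941 to 3103 and the ratio differed mainly through Tnni1.

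**Figure D2:**
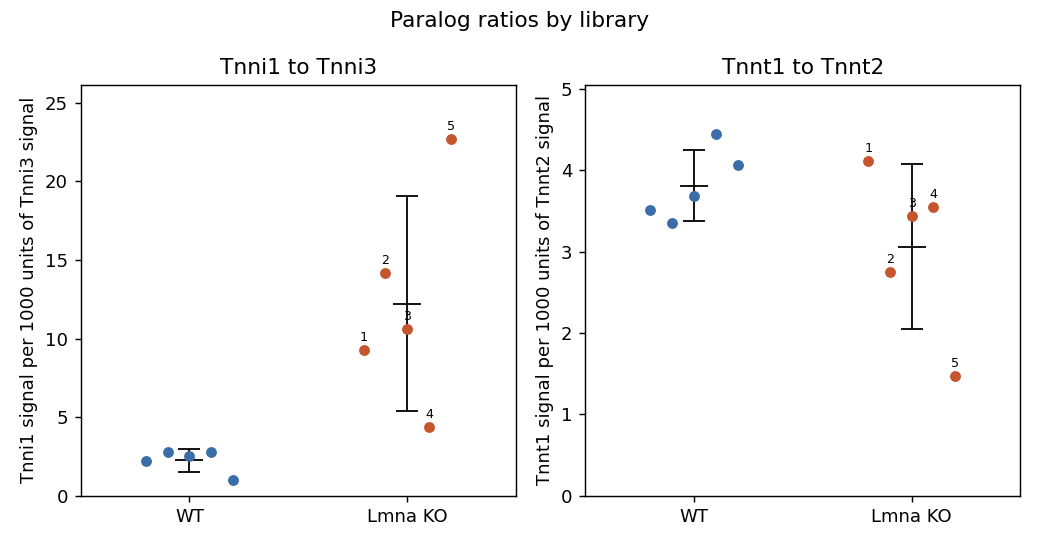
Ratio of Tnni1 to Tnni3 signal (left) and of Tnnt1 to Tnnt2 signal (right), per 1000 units of the second gene's signal, in each WT and Lmna knockout library; the y axes start at 0. Points are libraries, the long mark is the mean and the bar 1 SD, and numbers name the knockout library. The knockout libraries lie between 4.38 and 22.7 for troponin I, above the WT maximum of 2.79, and between 1.47 and 4.11 for troponin T, across the WT range of 3.35 to 4.44.

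Tnni1 remained a small part of troponin I in the knockout hearts. Divided by the length of the principal GENCODE transcript, it made up 0.179 ± 0.0582% of troponin I signal in WT and 0.957 ± 0.528% in the knockout (SD, n = 5 each). Its highest share was 1.77%, in KO library 5. Tnni3 made up at least 98.1% in every library.

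Of 10 markers of atrial muscle, 6, 7, 7, 5 and 8 were above the WT range in KO libraries 1 to 5. The share of all genes above the WT range in each knockout library was not computed, so these counts have no background. Myl7, the atrial regulatory light chain, was 0.067 to 0.510 in WT and 54.8, 36.9, 13.9, 0.375 and 81.5 in KO libraries 1 to 5. Myl4, the atrial essential light chain, was 2.23 to 2.79 in WT and 50.2, 45.0, 15.5, 2.36 and 107.1 in KO libraries 1 to 5. Sln, the atrial sarcolipin, was at most 0.153 in WT and 10.2, 17.4, 1.92, 0 and 16.2 in the knockout. In KO library 4 these 3 genes were within the WT range. Nppa, the atrial natriuretic peptide gene, was 24.9 to 71.2 in WT and 135, 125, 84.4, 146 and 6767 in KO libraries 1 to 5, above WT in each. KO library 4 thus had Nppa, Sbk2, Nr2f2, Stard10 and Bmp10 above WT. In that library Myl7, Myl4, Sln and Dkk3 were within the WT range and Gja5 below it, beside a Tnni1 signal of 13.6. The summed signal of all 10 atrial markers was 68.7 to 115.5 in WT and 316, 298, 173, 191 and 7093 in KO libraries 1 to 5, above WT in all. Nppa made up most of that sum in KO library 4 (146) and KO library 5 (6767), so the sum is not separate from the Nppa values. Gja5, the connexin of atrium and conduction system, was above WT in none. It was below the WT minimum of 8.46 in KO library 4 (6.54) and KO library 5 (5.43). Bmp10, an atrial growth factor, was 0 in every WT library and 0, 0.0576, 0, 0.0536 and 17.3 in the knockout. The values of 0.0576 and 0.0536 are 1 read each, and Stard10 in KO library 4 was 7.50 against a WT maximum of 7.29. Of 9 atrial markers tested, 0 passed in all libraries (limma), with 5 at an unadjusted p under 0.05, against 0.202% and 20.8% of all genes. The call depended on the test. With all libraries edgeR called only Myl7 (adjusted p = 0.0381), against 0.156% of all genes. DESeq2 called Myl7, Myl4, Sln and Dkk3 (adjusted p = 1.46e-08 to 0.000409), against 6.15%, and gave no adjusted p for Nppa and Bmp10. Library weights in limma called the same genes and Nppa (adjusted p = 0.00281 to 0.0109), against 17.7%. Gja5, Nr2f2 and Stard10 passed in none. Without KO library 5, 3 rose, Myl7, Nppa and Dkk3, against 4.98% of all genes called. The part of atrial tissue in the Tnni1 result was not tested.

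**Figure D3:**
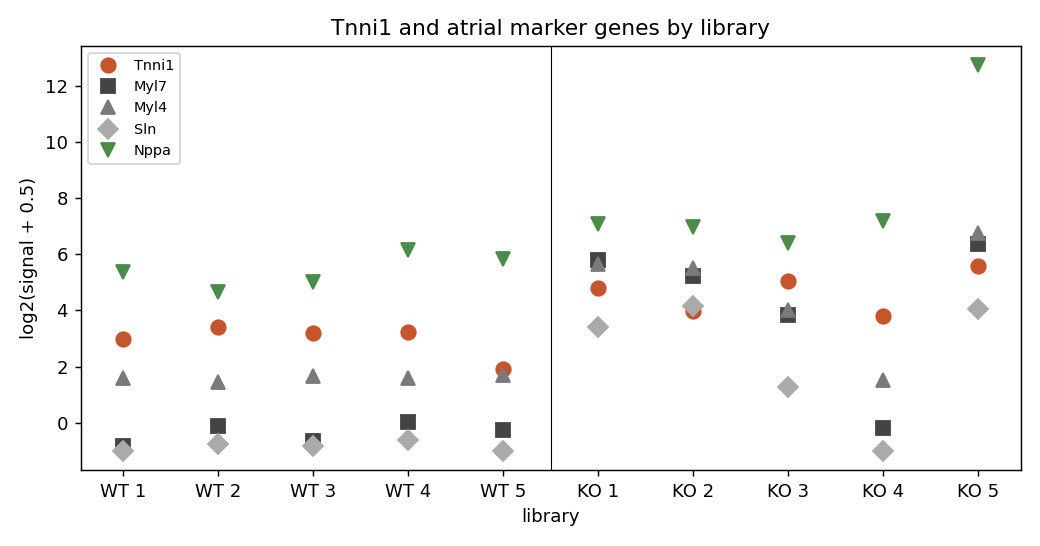
Tnni1 and 4 atrial marker genes on the log2(signal + 0.5) scale (y axis) in each library (x axis), WT to the left of the line and Lmna knockout to the right; each point is 1 library. Myl7, Myl4 and Sln lie above WT in KO libraries 1, 2, 3 and 5 and within the WT range in KO library 4, while Nppa (146 in KO library 4, WT maximum 71.2) and Tnni1 (13.6, WT maximum 10.03) lie above WT in all 5 knockout libraries.

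Skeletal muscle expresses Tnni1, Tnni2 and Tnnt1, so its markers are given beside them. Of 17 such markers, 7 were found among the genes used, the rest having no values there, and 3 reached the minimum for the test. The summed signal of the 7 was 47.1 to 92.3 in WT and 37.0 to 75.0 in the knockout. Mylpf, the fast skeletal regulatory light chain, Actn3, the fast-fibre actinin, Atp2a1, the fast calcium pump, and Myh8, the perinatal myosin, were each at most 0.882 in every library. Most of the sum came from Myl1, at 12.8 to 31.6 in WT and 6.15 to 22.6 in the knockout, Casq1, at 12.6 to 24.5 and 2.34 to 22.5, and Mybpc2, at 18.7 to 35.3 and 15.5 to 27.9, which all overlapped. Actn3 was higher in every knockout library (0.268 to 0.519) than in WT (0 to 0.219). It was counted from 0 to 11 reads per library, below the minimum for the test. Among the genes tested, a set without Actn3, 10.3% did not overlap, and the share for genes this low was not computed. Atp2a1 was above the WT range in 4 knockout libraries, Myh8 in 3 and Mylpf in 2, with Mylpf below it in 1. The part of skeletal muscle RNA in the Tnni1 values was not tested.

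Tnnt2, the cardiac troponin T, showed no common direction in the knockout hearts. Its signal was 4436, 4595, 4036, 3936 and 4328 in WT libraries 1 to 5. In KO libraries 1 to 5 it was 3970, 1615, 4532, 4817 and 8581. KO library 2 was below and KO libraries 4 and 5 above every WT library. The means were 4266 ± 275 and 4703 ± 2508 (SD, n = 5 each), with a log2 difference of -0.04 (SE 0.35, limma adjusted p = 0.951). The difference was 0.29 without KO library 2 and -0.31 without KO library 5, and 0.15 with edgeR, so its sign depends on single libraries and on the test.

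Tnnt1, the slow skeletal troponin T, was lowest in KO library 2. Its signal was 15.6, 15.4, 14.9, 17.5 and 17.6 in WT libraries 1 to 5 and 16.3, 4.43, 15.6, 17.1 and 12.6 in KO libraries 1 to 5. KO libraries 2 and 5 lay below the WT range and the other 3 within it. The means were 16.2 ± 1.25 and 13.2 ± 5.19 (SD, n = 5 each), the log2 difference was -0.41 (SE 0.30, limma adjusted p = 0.430), and it was -0.08 without KO library 2 and 0.01 without KO libraries 2 and 5. Tnni1 and Tnnt1, the slow skeletal forms of their subunits, thus differed in pattern: Tnni1 was above WT in 5 knockout libraries and Tnnt1 in 0.

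The ratio of Tnnt1 to Tnnt2 overlapped between the genotypes. Per 1000 units of Tnnt2 signal it was 3.51, 3.35, 3.69, 4.44 and 4.07 in WT libraries 1 to 5. It was 4.11, 2.75, 3.43, 3.55 and 1.47 in KO libraries 1 to 5. KO libraries 2 and 5 lay below the WT range, KO library 5 with a high Tnnt2 signal and a Tnnt1 signal under the WT range. The means were 3.81 ± 0.440 and 3.06 ± 1.01 per 1000 (SD, n = 5 each). The log2 ratio differed by -0.39 (two-sided exact permutation, p = 0.159, 0.159 adjusted over the 2 ratios), by -0.15 without KO library 5 and by -0.52 without KO library 1, where the adjusted exact permutation p was 0.0397.

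Tnnc1, the calcium-binding troponin C of the heart (chromosome 14, 31208312 to 31211711), was also lowest in KO library 2. Its signal was 1311, 1365, 1463, 1462 and 1442 in WT libraries 1 to 5 and 1453, 494, 1246, 1242 and 1017 in KO libraries 1 to 5. KO library 1 lay within the WT range and the other 4 below it. The means were 1409 ± 67.8 and 1090 ± 367 (SD, n = 5 each), with a log2 difference of -0.46 (SE 0.25, limma adjusted p = 0.303). It was -0.20 without KO library 2 and -0.10 without KO libraries 2 and 5.

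The Tnni3 to Tnnc1 ratio of signals overlapped between the genotypes, at 2.23 to 2.63 in WT and 2.03 to 2.50 in the knockout. KO libraries 1, 2 and 5 (2.06 in KO library 5) lay below the WT range. The Tnnt2 to Tnnc1 ratio was 2.69 to 3.38 in WT and 2.73, 3.27, 3.64, 3.88 and 8.44 in KO libraries 1 to 5. KO libraries 3, 4 and 5 lay above the WT range in that ratio, KO library 5 the furthest. The Tnnt2 to Tnni3 ratio was 1.18 to 1.34 in WT and 1.35, 1.495, 1.49, 1.55 and 4.10 in the knockout. This ratio was chosen after its values were seen and is given with no test.

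Tpm1, the main tropomyosin of cardiac muscle (chromosome 9, 67022593 to 67049213), was 7836, 8203, 7878, 6521 and 8433 in WT libraries 1 to 5. In KO libraries 1 to 5 it was 6953, 4135, 7602, 6028 and 5025. KO libraries 2, 4 and 5 lay below every WT library and the other 2 within the WT range. The log2 difference was -0.41 (SE 0.20, limma adjusted p = 0.256), and -0.18 without KO libraries 2 and 5.

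Tpm2, the beta tropomyosin (chromosome 4, 43513726 to 43523554), was 12.0 to 22.1 in WT and 18.6, 7.14, 14.4, 12.3 and 9.65 in KO libraries 1 to 5, with overlap (log2 difference -0.41, limma adjusted p = 0.329). The difference was -0.24 without KO library 2 and -0.09 without KO libraries 2 and 5. Smooth muscle also expresses Tpm2, and 8 smooth muscle markers summed to 622 to 783 in WT and 226 to 791 in the knockout. The lowest sum was in KO library 5, and its part in the Tpm2 value was not tested.

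Tpm3 (chromosome 3, 90072651 to 90100902) was 70.0 to 82.5 in WT and 67.2 to 85.5 in the knockout, with a log2 difference of 0.03 (SE 0.09, limma adjusted p = 0.849). Tpm4 (chromosome 8, 72135292 to 72153129) was 202, 170, 184, 160 and 214 in WT libraries 1 to 5 and 183, 206, 155, 90.8 and 77.9 in KO libraries 1 to 5. KO libraries 3, 4 and 5 lay below the WT range, while KO libraries 1 and 2 lay within it, so Tpm4 was not low in the library where Tpm1 was lowest. The log2 difference of Tpm4 was -0.48 (SE 0.25, limma adjusted p = 0.291), -0.28 without KO library 5, -0.63 without KO library 2 and -0.43 without both. Of the 50-base words of the principal transcripts, 62.4% for Tpm3 are shared with 5 other annotated genes and 12.1% for Tpm4 with 1, so the signals of these 2 genes are uncertain, and how the authors' counting treated such reads is not given in the sources used here. For the remaining 8 genes no such word was shared.

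**Figure D4:**
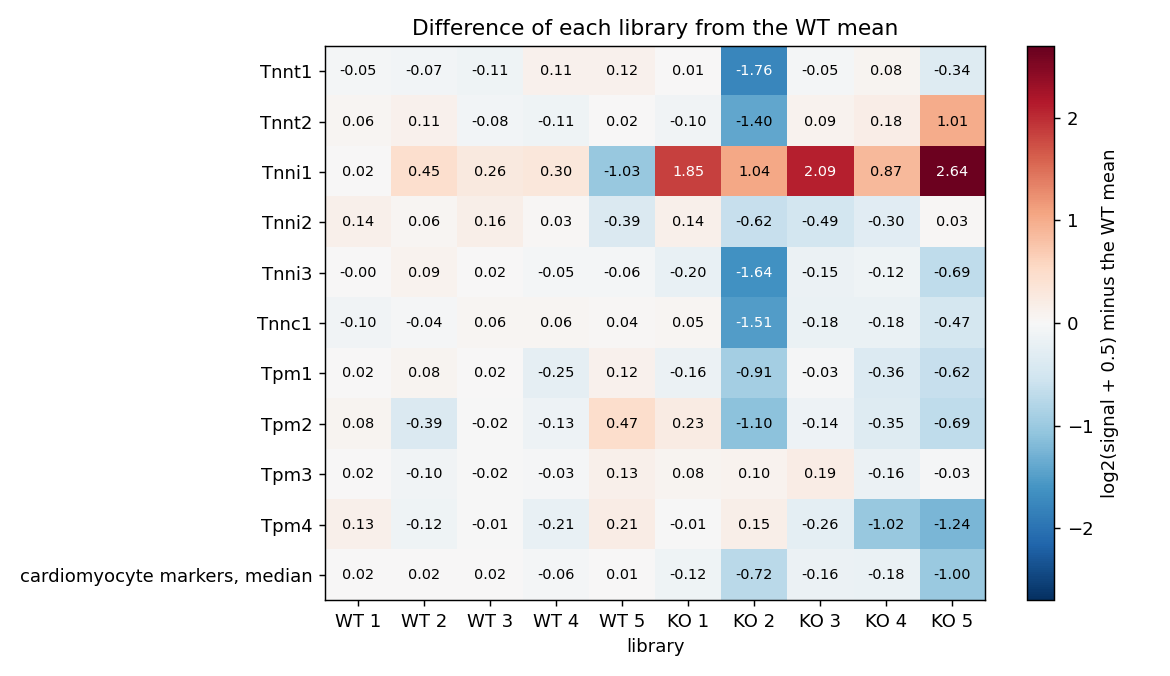
Log2(signal + 0.5) of each gene in each library minus the mean of the 5 WT libraries, with the median of 10 cardiomyocyte markers in the last row; color and number give the same value. KO library 2 has low values for Tnnt1 (-1.76), Tnni3 (-1.64), Tnnc1 (-1.51) and Tnnt2 (-1.40) but not for Tpm3 (0.10) or Tpm4 (0.15), and KO library 5 has a high Tnnt2 (1.01) beside a low Tpm4 (-1.24).

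The plot of differences by library shows KO libraries 2 and 5 apart in different genes. In KO library 2 the troponins Tnnt1, Tnni3, Tnnc1 and Tnnt2 were 1.40 to 1.76 log2 units below the WT mean, further than the cardiomyocyte marker median of -0.72. In KO library 5 that median was -1.0, while Tnni3 was -0.69, Tnnc1 -0.47 and Tnnt2 1.01. In KO libraries 1, 3 and 4 the marker median was -0.12 to -0.18, and Tnnt1, Tnnt2, Tnni3 and Tnnc1 were within -0.20 to 0.18.

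Transcript length differed among the genes that were low in KO library 2. The principal transcripts of Tnnc1, Tnni3, Tnnt1 and Tnnt2 are 721, 912, 1027 and 1200 bases long. Tpm1, Tpm2, Tpm4 and Tpm3 have 1898, 2098, 2128 and 2233 bases, with -0.91, -1.10, 0.15 and 0.10 in that library. Tnni2, with 768 bases, was at -0.62 and Tnni1, with 1150, at 1.04. Over all genes in that library the median log2 difference from the WT mean was -0.48 over 484 genes with transcripts under 1000 bases, -0.20 over 1823 genes of 1000 to 2000 bases and 0.06 over 2214 genes of at least 5000 bases. KO library 5 had -0.15 in the shortest class, and the other libraries were within 0.05 of 0 in every class. The part of length in the troponin values was not tested, and the length classes were chosen after the data were seen.

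Summed per kilobase of principal transcript, troponin T signal was 3297 to 3844 in WT and 3324, 1350, 3792, 4030 and 7163 in KO libraries 1 to 5. Troponin I was 3556 to 3947 in WT and 3251, 1199, 3367, 3416 and 2340 in the knockout. Troponin C was 1818 to 2029 in WT and 2015, 685, 1728, 1723 and 1410 in the knockout. On this scale troponin T and troponin I were at a like level in WT, with a ratio of 0.896 to 1.02, and KO library 5 had a ratio of 3.06. Tpm1 made up 96.8% to 97.4% of tropomyosin in WT. With the union of all exons as the length, the troponin T to troponin I ratio was 0.317 to 0.360 in WT and 0.362 to 1.08 in the knockout, so the level of one subunit against another depends on the length used.

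**Figure D5:**
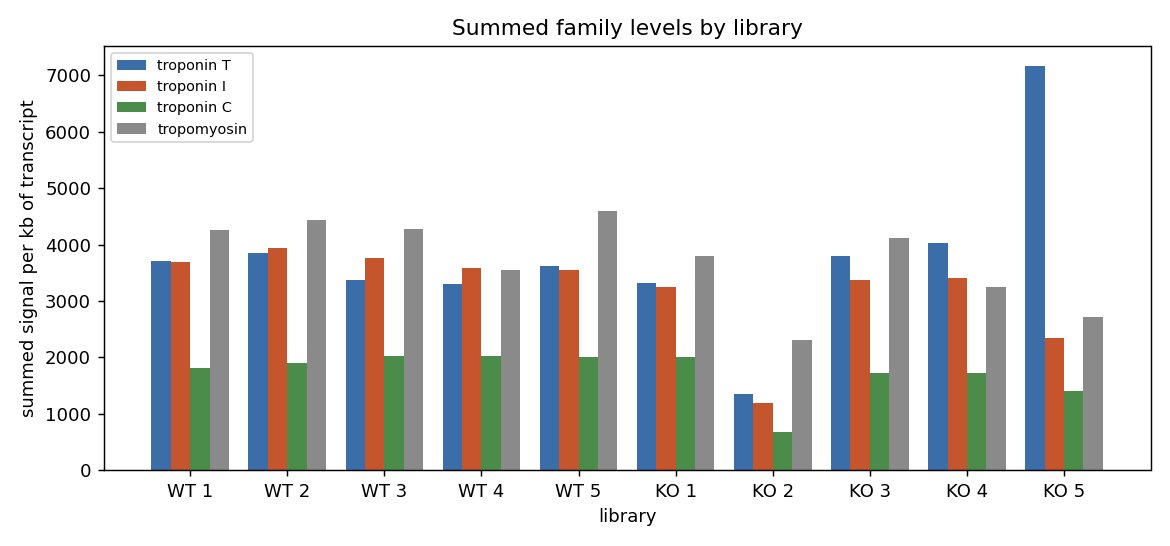
Summed signal per kilobase of principal transcript (y axis from 0) of troponin T, troponin I, troponin C and tropomyosin in each library (x axis); each bar is 1 library. Troponin T reaches 7163 in KO library 5 against 3297 to 3844 in WT, and all 4 families are lowest in KO library 2.

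Calls among the other genes of the thin filament were near the background. Of 17 tested, 0 passed with all libraries (limma), against 0.202% of all genes, with 3 at an unadjusted p under 0.05, against 20.8%, and a median log2 difference of -0.02. Without KO library 5, 1 fell, against 4.98% of all genes called. It was Tmod1, the tropomodulin that caps the filament's pointed end, with 421 ± 22.4 in WT (SD, n = 5) and 321 ± 45.0 in the 4 knockout libraries (limma adjusted p = 0.0420). Actc1, the cardiac actin, was 9817, 9206, 10167, 8726 and 10947 in WT libraries 1 to 5 and 9045, 10207, 7151, 5895 and 792 in KO libraries 1 to 5. KO library 5 was thus far below the rest in Actc1 while high in Tnnt2. Acta1, the skeletal actin, was 11.2 to 80.4 in WT and 22.4 to 65.6 in the knockout. Tnnt3, the fast skeletal troponin T, was 0.538 to 0.932 in WT and 0.173 to 0.726 in the knockout, below the minimum for the test.

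Among 18 transcription factors that act on sarcomere genes, 0 passed with all libraries (limma), against 0.202% of all genes, with 4 at an unadjusted p under 0.05, against 20.8%, and a median log2 difference of 0.20. Without KO library 5, 2 rose, Gata6 and Hand2, both factors of heart development, against 4.98% of all genes called. Gata6 was 81.1 ± 5.51 in WT (SD, n = 5) and 110 ± 8.25 in those 4 knockout libraries (limma adjusted p = 0.0148). Hand2 was 27.4 ± 4.34 and 43.2 ± 7.74 (limma adjusted p = 0.0251). Among 14 splicing regulators of sarcomere transcripts 0 passed with or without KO library 5 (limma), with 4 and 6 at an unadjusted p under 0.05, against 20.8% and 22.5% of all genes. The most abundant, Qk, was 816 ± 61.8 and 855 ± 155 (SD, n = 5 each). Among 20 kinases, phosphatases and proteases that act on troponin or tropomyosin, 0 passed with all libraries (limma), with 5 at an unadjusted p under 0.05, against 0.202% and 20.8% of all genes. Without KO library 5, 1 rose, against 4.98% of all genes called. It was Mmp2, a protease that cuts troponin I, with 158 ± 7.32 in WT (SD, n = 5) and 211 ± 15.7 in those 4 knockout libraries (limma adjusted p = 0.0137), whereas KO library 5, at 146.4, lay below every WT library.

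Genes with the most similar profiles to Tnni1, Tnni3, Tnnt1 and Tpm4 were found among 10461 genes by the root-mean-square difference of their log2 deviations from the WT mean over the 10 libraries. Tnni1 was closest to Cyp4b1 (0.556), Cirbp (0.580) and Dkk3 (0.589), the last being on the list of atrial markers above. These differences were larger than those for Tnni3, Tnnt1 and Tpm4, so the likeness to Tnni1 was weaker. Tnni3 was closest to Spag7 (0.0590), Ndufs6 (0.0662) and Gadd45gip1 (0.0812), and Tnnt1 to Ndufa5 (0.107), Ndufa13 (0.109) and Hypk (0.121). Tpm4 was closest to Smc2 (0.144), Timm8a1 (0.160) and Cd55 (0.165). These values describe likeness over 10 libraries, KO libraries 2 and 5 among them, and carry no test.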

How the data were processed

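Per the labels, total RNA was isolated with a miRNeasy kit and libraries were made with a TruSeq kit. The processing notes of the submitters list TopHat2, Cufflinks, edgeR and the build mm10, without versions. Sources used here do not name the read counter, its strand setting or the annotation. The authors deposited 1 signal per gene and library, a CPM of the effective library size, and a table of their genotype comparison that holds a log2 ratio, a p-value and an FDR for each gene. One read was worth 0.0447 to 0.0672 signal units, and dividing by that value gave whole reads for 100% of values within a tolerance of 0.01 read. A total of 21 of 14647 rows had a date for a name and were left out (0.1336% to 0.2037% of a library's reads).

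The test was limma 3.58.1 (R 4.3.3) with an intensity trend on log2(signal + 0.5), for the 12855 genes whose mean signal reached 1, with Benjamini-Hochberg adjustment over all of them and a threshold of 0.05. A difference on this scale understates the change of low genes, and ratios of group levels are ratios of mean signals. The 2 ratios were compared with a two-sided exact permutation test. Recovered reads were tested with edgeR 4.0.16 and DESeq2 1.42.0. Transcript lengths were those of GENCODE M21. Other alternatives were pseudocounts of 0.1 and 1, other filters and scalings, leaving out libraries, a replicate block, robust moderation and library weights. The functions were tested on simulated data.

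The 10 genes and the lists were chosen with earlier results of these data known, the Tnni1 difference among them, so the tests on Tnni1 and its ratio are not independent evidence. All 10 genes were named, with Lmna, Actc1, Acta1 and Tnnt3. From the lists of thin filament genes, transcription factors, splicing regulators and modifying enzymes, genes past the threshold with or without KO library 5 were named, or else the most abundant gene. Atrial and skeletal muscle markers are named as measured values, chosen after they were seen. Replicates were treated as separate animals. The same-numbered WT and KO libraries did not deviate together, so numbers were not used to pair them.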

Additional observations from a re-analysis of the deposited data

Results flagged for a closer look

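Of 24 groups of libraries tested for a single value standing apart, 1 was singled out, and chance gives about 1 in 20. Tnni2 in WT library 5 was 1.42, against 2.09 to 2.34 in the other 4 WT libraries, a gap of 0.729 of the group's range. Tnni2 was counted from 20 to 51 reads per library.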

How the results depend on the processing

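Tnni1 stayed positive in all 23 alternatives, from 1.44 to 2.11 on the log2 scale, with adjusted p from 0.000134 to 0.214. Of the 10 genes, 1 was called without KO library 5, without KO libraries 2 and 5, with library weights and with DESeq2, and 0 to 1 when single libraries were left out. Tnni3, Tnnc1 and Tpm4 stayed negative throughout. Tnnt2 was 0.386 with cardiomyocyte marker scaling, chosen after seeing the data, 0.055 without KO libraries 2 and 5, 0.017 with library weights, 0.150 with edgeR, 0.151 with DESeq2 and -0.308 to 0.294 when single libraries were left out. The same marker scaling gave 0.001 for Tnnt1, 0.092 for Tnni2, 0.016 for Tpm1 and 0.005 for Tpm2, and Lmna -1.26 (limma adjusted p = 0.0523). Tnnt1 was 0.013 without KO libraries 2 and 5, and Tpm3 ran from -0.005 to 0.082 when single libraries were left out. The Tnni1 to Tnni3 log2 difference was 2.06 to 2.65 when single libraries were left out. It was 2.33 with a replicate block (exact permutation, adjusted p = 0.125, where 5 pairs cannot go below 0.0625 unadjusted). By medians it was 2.06 (exact permutation, adjusted p = 0.0952, where the unadjusted p was the smallest that medians allow). The Tnnt1 to Tnnt2 difference was -0.518 to -0.148 when single libraries were left out, -0.042 without KO libraries 2 and 5 and -0.104 by medians. Same-numbered libraries had correlations of -0.134 to 0.182, so the block carries no pairing from the labels. The cause of these shifts was not tested. Tnni2 was not tested with a minimum mean of 5. With 5 libraries per group, of which 2 knockout libraries stand apart, the precision of single genes is limited, and Tnni2 also has few reads.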

Other observations

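Neighbours within 100000 bases of the 2 gene pairs were taken by position. Beside Tnni1 and Tnnt2, Phlda3, a p53 target that restrains AKT, was 9.35 to 11.6 in WT and 13.8 to 19.4 in the knockout, with no overlap, and rose by 0.63 on the log2 scale without KO library 5 (limma adjusted p = 0.0143), against 0.58 with it (limma adjusted p = 0.0741). Lad1, which lies between Tnni1 and Tnnt2 and encodes a protein of the epithelial basement membrane, was 2.89 to 5.11 in WT and 8.09, 6.51, 8.45, 10.9 and 56.6 in KO libraries 1 to 5. It did not overlap either and rose by 1.04 without KO library 5 (limma adjusted p = 0.0175), against 1.57 with it (limma adjusted p = 0.131). Csrp1, a LIM-domain protein of smooth muscle, was 42.1 to 49.8 and 40.1 to 64.6, with overlap. Beside Tnnt1 and Tnni3, none of Rdh13, Eps8l1, Ppp1r12c and Dnaaf3 passed with all libraries or without KO library 5 (limma), and all 4 overlapped. Among all genes tested, 4.98% were called without KO library 5 and 10.3% did not overlap. No cause of these values was tested.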
